A study of Solanum lycopersicum with 29 samples.

Results

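The tomato annotation used by the authors holds, beside the Solyc genes, a set of genes with ENSRNA identifiers, the identifiers given to annotated non-coding RNA genes. Of the 35092 genes in the count table, 1167 carry such an identifier, and 751 of these had no read in any of the 29 libraries. The 94 genes described here had a mean of at least 0.5 CPM (counts scaled to the total counted reads of the library) over the 29 libraries. The 2 genes just inside this limit had means of 0.503 and 0.511 CPM, and the 2 just outside it had 0.496 and 0.495 CPM. The genes were thus chosen by their mean CPM in these libraries, and levels are given as a description. A gene that is low in most groups could enter through a group where it is high. Over the 22 libraries of the 3 lines alone, 9 of the 94 genes had a mean below 0.5 CPM and so entered through WT, and over the 7 WT libraries alone 4 had, and so entered through the lines. A further 322 ENSRNA genes had reads but fell below the limit. A class and a position were held for 4 of the 94 genes, all small nucleolar RNA (snoRNA) genes, and the other 90 are called by identifier only.

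Anthers came from tomato (cv. Micro-Tom) plants kept in long-term mild heat (LTMH; 34°C by day, 28°C by night, 68% relative humidity) for 8 days or in control temperature (CT; 25°C by day, 19°C by night, 50% relative humidity). The lines were 35S:nahG, which carries a bacterial salicylic acid-degrading gene under the constitutive 35S promoter and was introgressed into Micro-Tom from another background, Never ripe, an ethylene-insensitive mutant, 35S:asCCD7, an antisense line for the strigolactone biosynthesis gene CCD7, and the wild type (WT). Each library was made from 6 pooled anthers with polarized microspores, of which there were 3 in LTMH and 4 in CT for 35S:nahG, Never ripe and WT, and 4 at each temperature for 35S:asCCD7. Replicates are called biological in the study, but whether the pools came from separate plants is not given in the sources used here.

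Small nucleolar RNAs are short RNAs of the nucleolus that base-pair with ribosomal RNA and guide its chemical modification, either methylation of the ribose or conversion of uridine to pseudouridine. In plants many of them are processed from longer precursors, some from introns of protein-coding genes and some from clusters transcribed together. Most mature small non-coding RNAs carry no poly(A) tail. The libraries were made from RNA bound to poly-T beads, so the counts measure what passed this selection and not the total amount of each RNA in the anther.

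Libraries held 32273189 to 42353956 counted reads, with a median of 34474482, at which 3 reads correspond to 0.0870 CPM. The stamen identity genes TAP3, TPI and TAG1 stood between 385 and 1404 CPM in all 29 libraries, and the fruit-ripening gene RIN between 1.41 and 10.1 CPM. Reads on CCD7 were more frequent in 35S:asCCD7 (8.03 to 11.9 CPM in LTMH and 7.95 to 19.2 CPM in CT) than in WT (0.509 to 0.744 CPM in LTMH and 1.10 to 1.68 CPM in CT). Counting did not use strand, so reads of the antisense transgene and of the gene cannot be told apart. Never ripe LTMH replicate 4, 35S:asCCD7 CT replicate 4 and 35S:asCCD7 LTMH replicates 1 and 3 lay farthest from the median of their own group over all tested genes, by a mean of 0.213 to 0.226 on the log2 scale, against a median library at 0.117. In such bulk samples fewer cells of a type and less RNA per cell cannot be told apart.

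The 94 genes together took 0.0402% to 0.0605% of the reads of a library. Most were short, as 68 were under 150 nt and 26 were 150 nt or longer, with a range of 65 to 7539 nt and a median of 108 nt. The libraries had been size-selected for fragments of about 150 to 200 bp, which is longer than each of these 68 genes. Levels were uneven, with 9 genes at 10 CPM or more, 52 between 1 and 10 CPM and 33 below 1 CPM, and a median of 1.6 CPM, against 14.4 CPM over all tested genes. Per length the order was reversed, since the median of mean FPKM was 12.6 for the 94 genes and 8.61 for all tested genes. As the fragments were longer than the 68 short genes, their FPKM may not be comparable with that of longer genes.

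**Figure D1:**
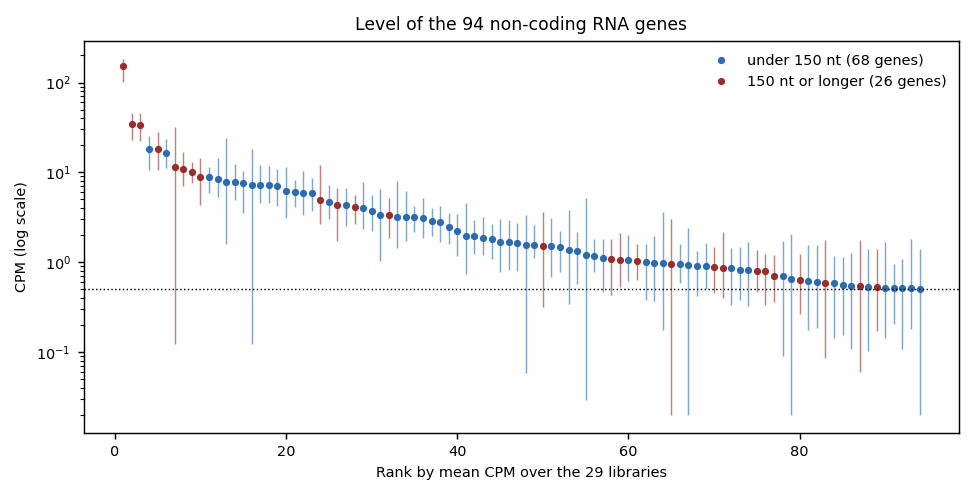
Mean CPM of the 94 non-coding RNA genes, ranked, on a log scale. Points show the mean over the 29 libraries and lines run from the lowest to the highest library, with 0 reads drawn at 0.02 CPM, blue for genes under 150 nt and red for longer ones. The dotted line is the limit of 0.5 CPM. The first gene stands at 152 CPM and 33 genes lie below 1 CPM.

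A single gene, ENSRNA050029732 (663 nt), held 21.1% to 36.3% of the reads of all 94. It averaged 161 ± 10.6 CPM in 35S:nahG LTMH and 170 ± 11.4 in 35S:nahG CT, 156 ± 17.0 in Never ripe LTMH and 131 ± 16.0 in Never ripe CT, 166 ± 12.7 in 35S:asCCD7 LTMH and 156 ± 19.5 in 35S:asCCD7 CT, and 120 ± 15.7 in WT LTMH and 147 ± 15.2 in WT CT (SD, n = 3 or 4). The WT LTMH libraries, at 102 to 130 CPM, overlapped only with those of Never ripe CT (118 to 149 CPM) and WT CT (130 to 165 CPM). None of the comparisons passed both thresholds for this gene, the nearest being WT LTMH against WT CT (log2 fold change -0.36 ± 0.11 SE, adjusted p = 0.034, under the 1.5-fold threshold) and 35S:nahG LTMH against WT LTMH (0.36 ± 0.10, adjusted p = 0.032).

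The next genes by level were ENSRNA050029737 (366 nt, 34.5 CPM), ENSRNA050029910 (7539 nt, 33.8 CPM), ENSRNA050029954 (128 nt, 18.4 CPM), ENSRNA050029894 (1506 nt, 18.2 CPM), ENSRNA050030014 (108 nt, 16.6 CPM), ENSRNA050029559 (161 nt, 11.5 CPM), ENSRNA050030201 (789 nt, 10.8 CPM), ENSRNA050029918 (1275 nt, 10.1 CPM) and ENSRNA050030202 (602 nt, 8.93 CPM). Of these only ENSRNA050029559 and ENSRNA050029737 were called in any comparison. Per length the order changed, and ENSRNA050029732 (227 FPKM) was followed by ENSRNA050030014 (152 FPKM) and ENSRNA050029954 (143 FPKM).

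Between the 8 groups, the mean CPM of a gene differed less than 2-fold from the lowest to the highest group for 46 genes, 2- to 4-fold for 27, and more for 21, of which 2 had a group without any read. In 27 genes the mean of at least 1 group was below 0.5 CPM, so these entered the set through groups where they were higher. All 94 passed the filter on low counts, which left 21637 genes. Within groups the median biological coefficient of variation, compared at like CPM, was above that of other genes in each of the 10 pairwise comparisons. In WT LTMH and WT CT it was 0.173 for the 74 genes between 0.695 and 9.67 CPM, against 0.169 for 6358 other genes in the same range, and in Never ripe LTMH and WT LTMH it was 0.231, against 0.190. These medians are given with no test.

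Summed over the 68 genes under 150 nt, every LTMH library was above every CT library of its line. The sum was 219 ± 15.1 CPM in 35S:nahG LTMH against 168 ± 3.86 in 35S:nahG CT, 240 ± 24.4 in Never ripe LTMH against 183 ± 12.9 in Never ripe CT, 252 ± 10.3 in 35S:asCCD7 LTMH against 185 ± 14 in 35S:asCCD7 CT, and 265 ± 17.2 in WT LTMH against 217 ± 7.08 in WT CT (SD). The sum of the longer genes without ENSRNA050029732 was 172 ± 15.7 CPM in 35S:nahG LTMH against 150 ± 19.0 in 35S:nahG CT, 165 ± 8.80 in Never ripe LTMH against 136 ± 16.5 in Never ripe CT, 172 ± 2.54 in 35S:asCCD7 LTMH against 152 ± 14.4 in 35S:asCCD7 CT, and 142 ± 20.2 in WT LTMH against 165 ± 17.8 in WT CT. For these longer genes too, every LTMH library was above every CT library in Never ripe and 35S:asCCD7, whereas the groups overlapped in 35S:nahG and WT. These sums are given as values, with no test. On this CPM scale genes in general stood apart more often higher than lower in LTMH. Of all tested genes, libraries did not overlap and LTMH was higher for 33.9%, 34.1%, 17.1% and 27.3% in 35S:nahG, Never ripe, 35S:asCCD7 and WT. It was lower for 20.9%, 7.23%, 4.77% and 16.5%. By the edgeR fits given below, the median log2 fold changes of the 68 genes were 0.12, 0.31, 0.21 and 0.17. Whether the sums rose more than genes in general was not tested.

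To see which genes responded to LTMH, the libraries of each line were compared by the quasi-likelihood test of edgeR, and calls required a Benjamini-Hochberg adjusted p under 0.05 together with a 1.5-fold difference. In 35S:nahG, 18 of the 94 genes were called (14 higher and 4 lower), or 19.1%, against 27.5% of all tested genes (14.5% higher, 13% lower). In Never ripe 7 were called (4 higher, 3 lower), or 7.45%, against 8.43% of all genes (4.41% higher, 4.02% lower), and in 35S:asCCD7 8 (6 higher, 2 lower), or 8.51%, against 7.17% (4.37% higher, 2.8% lower). In WT 18 were called (11 higher, 7 lower), or 19.1%, against 17.2% (8.77% higher, 8.43% lower). The shares in Never ripe, 35S:asCCD7 and WT were thus near those of all genes. The median log2 fold change of the 94 genes was 0.07 in 35S:nahG, 0.24 in Never ripe, 0.17 in 35S:asCCD7 and 0.09 in WT, and that of all tested genes was close to 0 (at most 0.01). Libraries of the 2 temperatures did not overlap for 27 of the 94 genes in 35S:nahG (24 higher, 3 lower), against 54.8% of all genes (33.9% higher, 20.9% lower), 30 in Never ripe (27 higher, 3 lower), against 41.3% (34.1% and 7.23%), 18 in 35S:asCCD7 (17 higher, 1 lower), against 21.9% (17.1% and 4.77%), and 31 in WT (24 higher, 7 lower), against 43.8% (27.3% and 16.5%). Among the 68 shorter genes 45 had a positive log2 fold change in 35S:nahG, 49 in Never ripe, 51 in 35S:asCCD7 and 44 in WT, and among the 26 longer ones 14, 15, 17 and 10.

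**Figure D2:**
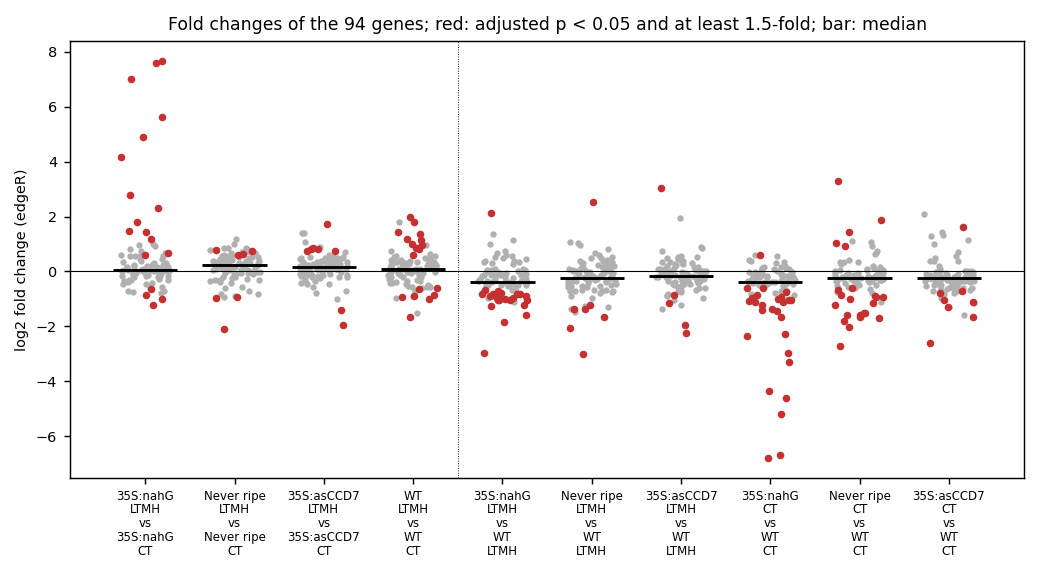
Log2 fold change (edgeR) of each of the 94 genes in the 10 pairwise comparisons, LTMH against CT within each line on the left and each line against WT at LTMH and at CT on the right. Red points passed an adjusted p of 0.05 and a 1.5-fold change, grey points did not, and black bars are medians. The medians are above 0 in the 4 comparisons of LTMH with CT and below 0 in the 6 comparisons with WT, down to -0.40.

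The called genes of a line depended on single libraries to different degrees. In 35S:nahG 14 of 18 calls held with every library left out in turn, in Never ripe 2 of 7, in 35S:asCCD7 4 of 8 and in WT 9 of 18. Without WT LTMH replicate 4 the count in WT was 11. In Never ripe it was 2, 4, 3 and 3 without CT replicates 1, 2, 3 and 4, 4 without LTMH replicate 1, and 11 without LTMH replicate 4. In 35S:asCCD7 it was 4 without CT replicate 1, 2 or 3 or LTMH replicate 4, and 5 without LTMH replicate 2. One fit over all 8 groups called 13 genes in 35S:asCCD7.

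Across the 4 lines, 34 genes were called in at least 1 line and 60 in none. The shares of all genes are given by direction. Higher calls were found for 22 genes in at least 1 line (23.4% of them, against 18.7% of all genes), 10 in at least 2 (against 8.62%) and 3 in at least 3 (against 3.48%). Lower calls were found for 13 genes (against 18.7%), 2 (against 6.8%) and 1 (against 2.27%). With edgeR no gene was called in the same direction in all 4 lines, against 1.19% of all genes called higher and 0.49% called lower. The count of 0 is thus near the shares of all genes. At an unadjusted p under 0.05 in all 4 lines there were 2 higher genes and 1 lower gene, and DESeq2 called 1. ENSRNA050030327 was the only gene called higher in some lines and lower in another.

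ENSRNA050029778 (140 nt) rose with LTMH in 35S:nahG, 35S:asCCD7 and WT. It stood at 3.28, 3.72 and 4.24 CPM in 35S:nahG LTMH against 1.49 to 1.59 CPM in the 4 35S:nahG CT libraries, 3.06, 3.71, 3.99 and 4.81 CPM in 35S:asCCD7 LTMH against 1.86 to 2.3 in 35S:asCCD7 CT, and 5.12, 6.93 and 8 CPM in WT LTMH against 2.57 to 3.19 in WT CT. The groups of each of these lines did not overlap. LTMH changed it by a log2 fold of 1.18 ± 0.16 (SE, adjusted p = 0.00022), 0.73 ± 0.18 (0.031) and 1.13 ± 0.17 (0.0016). In Never ripe it was 0.84 ± 0.28 (adjusted p = 0.07), with 2.41, 3.66 and 5.11 CPM in LTMH against 1.44 to 2.48 in CT, and there the groups overlapped. The 35S:asCCD7 call was lost without any 1 of CT replicates 1 to 4 or LTMH replicates 2, 3 and 4 (adjusted p = 0.0505 to 0.0924).

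ENSRNA050029711 (90 nt) rose in Never ripe, 35S:asCCD7 and WT. It had 6.75, 7.30 and 9.07 CPM in Never ripe LTMH against 3.67 to 4.25 in Never ripe CT, 7.46 to 9.34 in 35S:asCCD7 LTMH against 3.32 to 4.99 in 35S:asCCD7 CT, and 6.94, 9.31 and 10.2 in WT LTMH against 4.97 to 5.87 in WT CT, with no overlap in any of these lines. The log2 fold changes were 0.77 ± 0.13 (SE), 0.81 ± 0.15 and 0.62 ± 0.14, with adjusted p of 0.0076, 0.012 and 0.009, and in 35S:nahG the change was 0.20 ± 0.17 (adjusted p = 0.34). The WT value fell under the 1.5-fold threshold without CT replicate 2 (0.57), LTMH replicate 3 (0.51) or LTMH replicate 4 (0.58).

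ENSRNA050029939 (305 nt) fell with LTMH in the same 3 lines, from a low level. Its values were 0.0928, 0.200 and 0.476 CPM in Never ripe LTMH against 0.679 to 1.18 in Never ripe CT, 0.183 to 0.505 in 35S:asCCD7 LTMH against 0.430 to 1.74 in 35S:asCCD7 CT, and 0.0595, 0.179 and 0.261 in WT LTMH against 0.348 to 0.787 in WT CT. The groups were apart in Never ripe and WT and overlapped in 35S:asCCD7. The log2 fold changes were -2.09 ± 0.50 (SE) in Never ripe, -1.96 ± 0.49 in 35S:asCCD7 and -1.65 ± 0.51 (adjusted p = 0.036) in WT. Its mean over the 29 libraries was 0.538 CPM, close to the limit. It passed the limit through its high values in Never ripe CT and 35S:asCCD7 CT. A fall from these groups is in part fixed by the choice, so no p is given for it. Each call was lost with several single libraries left out. In Never ripe this was CT replicate 1, 2 or 4 or LTMH replicate 1. In 35S:asCCD7 it was CT replicate 1, 2 or 3 or LTMH replicate 2, 3 or 4. In WT it was CT replicate 1 or 4 or LTMH replicate 2 or 4. The values without them were -1.26 to -2.11.

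ENSRNA050030087 (156 nt) also fell, to 0.942 to 1.46 CPM in 35S:asCCD7 LTMH, against 1.89 to 3.62 CPM in 35S:asCCD7 CT (log2 fold change -1.41 ± 0.26 SE, adjusted p = 0.012), and to 0.715, 0.803 and 1.27 CPM in Never ripe LTMH, against 1.42 to 1.77 CPM in Never ripe CT (-0.96 ± 0.23, 0.028). It did not pass in 35S:nahG (-0.79 ± 0.34, 0.076) or WT (-1.53 ± 0.55, 0.059). The Never ripe call was lost without CT replicate 1, 3 or 4 or LTMH replicate 1 or 3 (-0.82 to -0.99). ENSRNA050029737, the second most abundant gene, fell only in WT by these thresholds, with 22.9, 24.7 and 31.3 CPM in WT LTMH against 34.4 to 42.9 in WT CT (-0.63 ± 0.12, 0.0057), a value of -0.58, -0.57 and -0.53 without CT replicate 2, LTMH replicate 3 and LTMH replicate 4.

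In single lines, ENSRNA050030007 (132 nt) fell to 0.366, 0.551 and 0.618 CPM in 35S:nahG LTMH, against 0.885 to 1.35 CPM in 35S:nahG CT (log2 fold change -1.23 ± 0.30 SE, adjusted p = 0.0078), and ENSRNA050029908 (89 nt) to 0.265, 0.536 and 0.667 CPM, against 0.708 to 1.15 CPM (-0.98 ± 0.35, 0.042). The call of ENSRNA050029908 was lost without CT replicate 1, 2 or 3 or LTMH replicate 2 or 4 (-0.70 to -1.03). ENSRNA050030316 (91 nt) was higher in Never ripe LTMH, at 1.07, 1.30 and 1.46 CPM, against 0.622 to 0.751 CPM in Never ripe CT (0.74 ± 0.21, 0.045), a call lost without any 1 of the 7 libraries (0.62 to 0.84).

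A set of 7 genes had 0 to 22 reads per library in 35S:nahG CT. They were named after their values were seen as those called at least 4-fold lower in 35S:nahG CT than in WT CT and at least 4-fold higher in 35S:nahG LTMH than in 35S:nahG CT. In all tested genes 277, or 1.28%, met the same limits. The 7 genes are ENSRNA050029543 and ENSRNA050029559 (161 nt each), ENSRNA050029573, ENSRNA050029576, ENSRNA050029583 and ENSRNA050029585 (117 nt each) and ENSRNA050030505 (149 nt). Several share a length and have near-consecutive identifiers. Their sequences were not held here, and reads that fit more than 1 position were not counted, so the split of reads between near-identical copies, if there are any, is uncertain.

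ENSRNA050029559, the most abundant of them, had 13.3, 13.5 and 15.3 CPM in 35S:nahG LTMH against 0.124, 0.147, 0.147 and 0.637 CPM in 35S:nahG CT. In WT it had 12.0, 12.8 and 15.1 CPM in LTMH against 3.48, 4.71, 8.33 and 9.51 CPM in CT. The 4 35S:nahG CT libraries were far below all others, whereas 35S:nahG LTMH lay among the WT LTMH values. The log2 fold change was 5.62 ± 0.36 (SE, adjusted p = 2.6e-06) for LTMH in 35S:nahG, 0.97 ± 0.30 (0.035) for LTMH in WT, -4.62 ± 0.51 (0.00018) for 35S:nahG CT against WT CT, and 0.02 ± 0.11 (0.92) for 35S:nahG LTMH against WT LTMH. The WT call was lost without CT replicate 1 or LTMH replicate 2, 3 or 4 (0.85 to 1.04).

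ENSRNA050029576 had 7.83, 8.17 and 9.55 CPM in 35S:nahG LTMH against 0.124, 0.236, 0.323 and 0.376 CPM in 35S:nahG CT, and 10.5, 10.9 and 11.4 CPM in WT LTMH against 2.09, 4.95, 6.72 and 7.73 CPM in WT CT. The change with LTMH was 4.89 ± 0.25 (log2, SE, adjusted p = 6.4e-07) in 35S:nahG and 0.96 ± 0.34 (0.055) in WT, and 35S:nahG CT was lower than WT CT by -4.34 ± 0.45 (0.00014). ENSRNA050030505 had 1.28, 1.41 and 1.44 CPM in 35S:nahG LTMH against 0.0587, 0.217, 0.325 and 0.434 CPM in 35S:nahG CT (2.31 ± 0.44, 0.0021) and was likewise below the 1.10 to 1.71 CPM of WT CT (-2.35 ± 0.43, 0.0029).

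The other 4 were near or at 0 reads in 35S:nahG CT. ENSRNA050029543 and ENSRNA050029585 had 0 reads in all 4 of these libraries, and taken against 3 reads per library they were at least 8.19-fold and 8.65-fold higher in 35S:nahG LTMH than in 35S:nahG CT, and at least 4.21-fold and 4.52-fold lower in 35S:nahG CT than in WT CT. ENSRNA050029573 had 153 reads in 35S:nahG LTMH against 1 read in 35S:nahG CT, where WT CT held 54. Scaled to library totals it was 198-fold higher in LTMH, with an exact 95% interval of 35.1 to 7886 that covers counting error only, and 53.6-fold lower (9.21 to 2154) than in WT CT. ENSRNA050029583 had 52 reads in 35S:nahG LTMH against 3 in 35S:nahG CT, a ratio of 22.5 (7.28 to 113), and was 11.2-fold lower in 35S:nahG CT than in WT CT, which held 34 reads. It entered through WT (0.476 CPM over the libraries of the lines), so being lower in a line is in part fixed by the choice. ENSRNA050029585 entered through the lines (0.353 CPM over the WT libraries). For both, the differences from WT are a description.

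**Figure D3:**
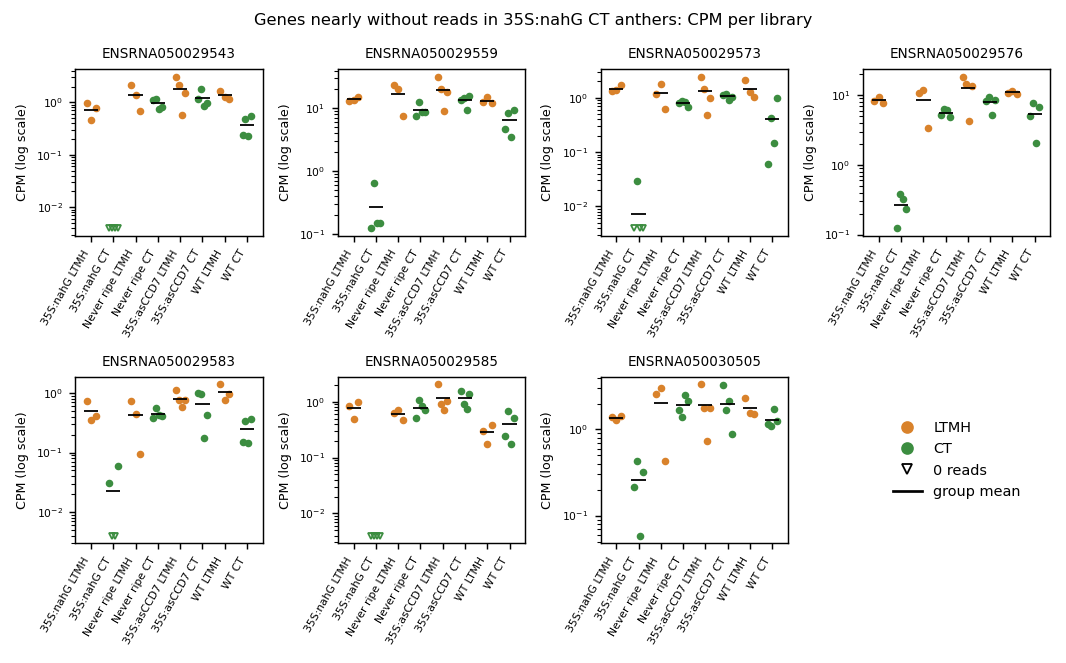
CPM per library (log scale) of the 7 genes that had 0 to 22 reads per library in 35S:nahG CT, one panel per gene. Orange is LTMH and green is CT, with group means as black lines and libraries with 0 reads as open triangles at 0.004 CPM. The 35S:nahG CT libraries lie below all other libraries in 6 of the 7 panels, and for ENSRNA050030505 the highest of them (0.434 CPM) is level with the lowest Never ripe LTMH library (0.433 CPM).

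Summed over the 7 genes, the level was 27.4 ± 0.894 CPM in 35S:nahG LTMH and 0.817 ± 0.456 in 35S:nahG CT, 31.5 ± 15.8 in Never ripe LTMH and 20 ± 2.88 in Never ripe CT, 39.6 ± 18.6 in 35S:asCCD7 LTMH and 27.4 ± 5.34 in 35S:asCCD7 CT, and 30.2 ± 2.29 in WT LTMH and 14.6 ± 5.81 in WT CT (SD). The wide SD in 2 of the LTMH groups came with Never ripe LTMH replicate 4, at 13.3 CPM beside 39.2 and 41.8, and 35S:asCCD7 LTMH replicate 3, at 16.6 CPM beside 37.7 to 62.0, which are 2 of the libraries that stood apart over all genes. After the group means were removed, Pearson's r of log2(CPM + 0.1) over the 29 libraries was 0.27 to 0.85 for the 21 pairs of the 7 genes (median 0.60), where the median over all 4371 pairs of the 94 genes was 0.05. These values are a description.

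Genes of the tapetum, the nursing cell layer of the anther, also differed between the same groups. The sum of 4 tapetum genes was 6.5 ± 0.645 CPM in 35S:nahG LTMH and 5051 ± 843 in 35S:nahG CT, 6.87 ± 4.01 in Never ripe LTMH and 521 ± 790 in Never ripe CT, 53.6 ± 81.6 in 35S:asCCD7 LTMH and 80.5 ± 101 in 35S:asCCD7 CT, and 74.0 ± 85.4 in WT LTMH and 777 ± 714 in WT CT (SD). Of these, CYP703A2 and CYP704B1, which make sporopollenin precursors in Arabidopsis, were at 2078 to 3286 and 1679 to 2427 CPM in 35S:nahG CT, against 50.2 to 1034 and 63.0 to 736 CPM in WT CT, and WBC27, a transporter, was at 156 to 280 against 6.23 to 55.0 CPM. TDF1, a tapetum transcription factor, was at 0.590 to 1.68 CPM in 35S:nahG CT and 0.310 to 4.10 CPM in WT CT. Within WT CT, replicate 3 had the highest tapetum sum (1810 CPM) and the lowest sum of the 7 genes (7.98 CPM), and replicate 2 the lowest tapetum sum (169 CPM) beside 19.1 CPM. Within Never ripe CT, replicate 1 had the highest tapetum sum (1696 CPM) and the lowest sum of the 7 genes (17.4 CPM), and replicate 2 the lowest (39.9 CPM) and the highest (23.9 CPM). Within 35S:asCCD7 CT, replicate 3 had the highest tapetum sum (214 CPM) and the lowest sum of the 7 genes (19.5 CPM), and replicate 4 the lowest tapetum sum (1.58 CPM) beside 29 CPM. Never ripe LTMH replicate 4 had the lowest value of its group for both (4.18 and 13.3 CPM). In WT LTMH both sums ran in the same order. Replicates 4, 2 and 3 had tapetum sums of 4.22, 48.5 and 169 CPM beside 27.5, 31.50 and 31.53 CPM. So did 35S:nahG LTMH replicates 2, 3 and 4, with 6.03, 6.24 and 7.24 CPM beside 26.7, 27.0 and 28.4 CPM. The order was mixed in 35S:asCCD7 LTMH. Its replicates 1 to 4 had 5.64, 175, 30.7 and 3.52 CPM beside 62.0, 42.1, 16.6 and 37.7 CPM. The part of the tapetum, or of the exact stage of the anthers, in the level of the 7 genes was not tested.

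The 3 lines were then compared with WT at each temperature, all against the same WT libraries. In LTMH, 24 of the 94 genes were called in 35S:nahG (1 higher, 23 lower), or 25.5%, against 9.41% of all tested genes (4.59% higher, 4.83% lower). Never ripe had 7 (1 higher, 6 lower), or 7.45%, against 4.34% (2.44% higher, 1.9% lower), and 35S:asCCD7 had 5 (1 higher, 4 lower), or 5.32%, against 5.53% (3.66% higher, 1.87% lower). In CT, 27 were called in 35S:nahG (1 higher, 26 lower), or 28.7%, against 16.4% (7.85% higher, 8.55% lower). Never ripe had 23 (5 higher, 18 lower), or 24.5%, against 10.5% (6.15% higher, 4.39% lower), and 35S:asCCD7 had 8 (1 higher, 7 lower), or 8.51%, against 3.81% (2.17% higher, 1.64% lower). The libraries of line and WT did not overlap for 48, 29 and 19 of the 94 genes in LTMH in 35S:nahG, Never ripe and 35S:asCCD7 (37, 20 and 13 of them lower), against 42.3%, 32.7% and 29.5% of all genes (15.5%, 13.3% and 6.56% lower and 26.9%, 19.4% and 23% higher), and for 36, 36 and 17 in CT (33, 31 and 13 lower), against 34.9%, 30% and 16% (14.7%, 20.5% and 4.47% lower and 20.2%, 9.54% and 11.5% higher). In all, 55 of the 94 genes were called in at least 1 of the 10 pairwise comparisons, against 43.9% of all genes.

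Most of the calls were lower in the line. Lower calls took 24.5%, 6.38% and 4.26% of the 94 genes in LTMH in 35S:nahG, Never ripe and 35S:asCCD7, against 4.83%, 1.9% and 1.87% of all genes, and 27.7%, 19.1% and 7.45% in CT, against 8.55%, 4.39% and 1.64%. The median log2 fold change of the 94 genes was -0.37, -0.22 and -0.15 in LTMH and -0.40, -0.24 and -0.25 in CT, where the medians of all tested genes were between -0.01 and 0.03. Setting the 2 genes without reads in 35S:nahG CT to their bounds left the median at -0.40. A negative log2 fold change was found in 71, 60 and 60 of the 94 genes in LTMH and in 78, 68 and 74 in CT.

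The choice of the genes bears on these counts, since a gene that passed the limit only through WT had to be lower in the lines. Without the 9 genes that entered through WT and the 4 that entered through the lines, a subset formed after the values were seen, lower calls were found in 18, 2 and 1 of 81 genes in LTMH in 35S:nahG, Never ripe and 35S:asCCD7, or 22.2%, 2.47% and 1.23%, and in 18, 13 and 5 in CT, or 22.2%, 16% and 6.17%. In LTMH the shares in Never ripe and 35S:asCCD7 were thus near those of all genes. The medians of the 81 genes were -0.36, -0.19 and -0.12 in LTMH and -0.34, -0.23 and -0.24 in CT.

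Short and long genes differed in these medians. For the 68 genes under 150 nt the medians were -0.44, -0.25 and -0.21 in LTMH and -0.42, -0.34 and -0.34 in CT in 35S:nahG, Never ripe and 35S:asCCD7, and for the 26 longer genes they were -0.05, 0.01 and 0.06 in LTMH and -0.20, -0.09 and -0.18 in CT. Short Solyc genes are given for comparison. Over the 748 tested ones under 300 nt, the medians were 0.03, 0.05 and 0.13 in LTMH and 0.01, 0.06 and -0.02 in CT. A shared WT group enters all of these comparisons, so they are not independent of each other. Whether the libraries of the lines were prepared together is not given in the sources used here, and line and preparation cannot be told apart.

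Single libraries carried part of the counts. In 35S:nahG LTMH against WT LTMH the count was 12 without WT LTMH replicate 3 or 35S:nahG LTMH replicate 3 and 14 without 35S:nahG LTMH replicate 4. In Never ripe LTMH it was 3, 1 and 2 without WT LTMH replicates 2, 3 and 4, 4 without Never ripe LTMH replicate 1 and 3 without replicate 3. In 35S:asCCD7 LTMH it was 1, 1 and 2 without the same WT replicates and 3, 2, 8 and 2 without 35S:asCCD7 LTMH replicates 1, 2, 3 and 4. In 35S:asCCD7 CT it was 4, 3 and 4 without WT CT replicates 1, 3 and 4 and 5, 3 and 5 without 35S:asCCD7 CT replicates 1, 2 and 3. Other fits moved some counts as well. DESeq2 called 13 genes in Never ripe LTMH, 9 in 35S:asCCD7 LTMH and 16 in 35S:asCCD7 CT, and one fit over all 8 groups called 13, 12 and 14. With every library left out in turn, 20 of 27 calls held in 35S:nahG CT and 17 of 23 in Never ripe CT.

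The genes called lower in all 3 lines in CT were 7, or 7.45%, against 0.615% of all genes. They were snoZ105 (ENSRNA050030278), snoR8a (ENSRNA050030338), ENSRNA050029629, ENSRNA050029720, ENSRNA050030157, ENSRNA050030328 and ENSRNA050030473. In LTMH only snoZ105 was called lower in all 3 lines (against 0.638% of all genes), and 8 genes in at least 2 lines (against 1.86%). Of these 8, snoZ105, ENSRNA050029720, ENSRNA050029780, ENSRNA050030113 and ENSRNA050030461 entered through WT. Their lower level in the lines is in part fixed by the choice, so the count of 8 is a description. Of the 7 genes, snoZ105 (0.414 CPM over the 22 libraries of the lines and 2.73 CPM over those of WT) and ENSRNA050029720 (0.434 and 1.10 CPM) were among those that entered through WT, so that being lower in the lines is in part fixed by the choice, and 5 passed the limit over the libraries of the lines. For each gene named below that entered through WT or through the lines, the differences from WT are therefore a description and no p is given.

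The 4 annotated snoRNA genes are short genes on 4 chromosomes (genome SL3.0). They are snoR44_J54 (ENSRNA050029714, chromosome 3, 66963492 to 66963575, minus strand, 84 nt), of the R44/J54/Z268 family, snoR64 (ENSRNA050029998, chromosome 2, 38257747 to 38257833, minus strand, 87 nt), of the R64/Z200 family, snoR8a (ENSRNA050030338, chromosome 5, 6874079 to 6874168, plus strand, 90 nt) and snoZ105 (ENSRNA050030278, chromosome 4, 65542186 to 65542257, plus strand, 72 nt). Their mean CPM over the libraries was 7.77, 7.17, 1.37 and 0.972. Names were held here only for genes with the smallest p-values between 35S:nahG LTMH and WT LTMH, so this contrast chose the 4 genes and its values are a description, given below without a test. Other comparisons with the WT LTMH or 35S:nahG LTMH libraries use the same samples. For the 4 genes, the p-values of those comparisons are not independent of this choice and are a description. For the same reason the 4 are not a sample of all snoRNA genes.

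**Figure D4:**
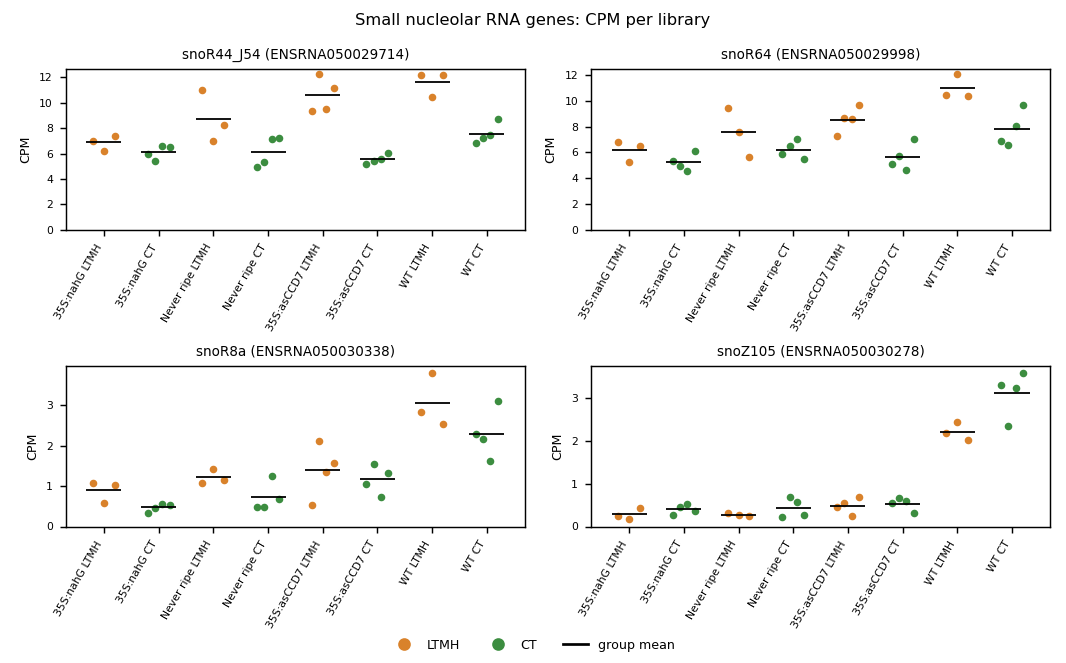
CPM per library of the 4 annotated snoRNA genes by line and temperature, on a linear scale from 0, orange for LTMH and green for CT, with group means as black lines. For snoZ105 the 22 libraries of the 3 lines lie between 0.174 and 0.693 CPM, all below the 7 WT libraries at 2.02 to 3.57 CPM.

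snoZ105 (ENSRNA050030278), which entered through WT, was lower in every library of the 3 lines than in every WT library. It had 0.174, 0.254 and 0.441 CPM in 35S:nahG LTMH, 0.248, 0.268 and 0.315 in Never ripe LTMH and 0.244, 0.449, 0.549 and 0.693 in 35S:asCCD7 LTMH, against 2.02, 2.18 and 2.44 CPM in WT LTMH. In CT the values were 0.279 to 0.529 in 35S:nahG, 0.231 to 0.685 in Never ripe and 0.316 to 0.659 in 35S:asCCD7, against 2.34, 3.22, 3.31 and 3.57 in WT. Against WT the log2 fold change in LTMH was -2.98 ± 0.32 (SE) in 35S:nahG, -3.02 ± 0.23 in Never ripe and -2.25 ± 0.35 in 35S:asCCD7, and in CT it was -2.95 ± 0.24, -2.73 ± 0.32 and -2.62 ± 0.26. The 35S:asCCD7 LTMH call was lost without WT LTMH replicate 2 (-2.25) or 3 (-2.19). The change with LTMH was not called in any line, at -0.57 (adjusted p = 0.3) in 35S:nahG, -0.82 (0.24) in Never ripe, -0.23 (0.74) in 35S:asCCD7 and -0.56 ± 0.18 (0.042) in WT, the last under the fold threshold.

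The neighbouring genes of snoZ105 were examined too. Of the 20 tested Solyc genes nearest to ENSRNA050030278 by identifier number, 10 on each side, 3, 3 and 3 were called lower in LTMH and 1, 2 and 1 in CT in 35S:nahG, Never ripe and 35S:asCCD7, and 2, 1 and 1 were called higher in LTMH and 1, 3 and 1 in CT. Of all tested genes 4.83%, 1.9% and 1.87% were called lower in LTMH and 8.55%, 4.39% and 1.64% in CT. The medians of the 20 genes lay between -0.06 and 0.09 on the log2 scale. The identifier numbers followed the chromosome in 1005 of 1024 adjacent pairs of genes with a known position. For snoR8a (ENSRNA050030338) 4, 3 and 3 of the 20 nearest genes were called lower in LTMH and 4, 4 and 2 in CT, and 2, 0 and 1 were called higher in LTMH and 3, 0 and 0 in CT, with medians of -0.19 to 0.12. Whether these neighbours differ from other genes was not tested.

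snoR8a (ENSRNA050030338) had 0.580, 1.03 and 1.07 CPM in 35S:nahG LTMH, 1.09, 1.15 and 1.43 in Never ripe LTMH and 0.533, 1.34, 1.58 and 2.11 in 35S:asCCD7 LTMH, against 2.53, 2.84 and 3.8 CPM in WT LTMH. In CT it had 0.341 to 0.558 CPM in 35S:nahG, 0.472 to 1.25 in Never ripe and 0.738 to 1.55 in 35S:asCCD7, against 1.62, 2.17, 2.28 and 3.12 in WT. No library of a line reached the lowest WT library of its temperature. Against WT its log2 fold change in LTMH was -1.83 ± 0.27 (SE) in 35S:nahG, -1.36 ± 0.23 (adjusted p = 0.019) in Never ripe and -1.21 ± 0.40 (0.097) in 35S:asCCD7, and in CT it was -2.29 ± 0.26 (0.00021), -1.58 ± 0.32 (0.0068) and -1.05 ± 0.27 (0.047). The Never ripe LTMH call was lost without WT LTMH replicate 2 or 3 or Never ripe LTMH replicate 1 (-1.40, -1.19 and -1.29), and the 35S:asCCD7 CT call without any 1 of its 8 libraries (-0.88 to -1.20).

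snoR64 (ENSRNA050029998) lies within the span of Solyc02g067520.3 (chromosome 2, 38256677 to 38258414, minus strand), a protein-coding gene on the same strand. Whether it lies in an exon or an intron was not examined here, and reads of the precursor and of the snoRNA gene cannot be told apart. It had 5.28, 6.5 and 6.82 CPM in 35S:nahG LTMH against 10.4, 10.5 and 12.1 in WT LTMH (log2 fold change -0.89 ± 0.12 SE), and 4.55 to 6.14 CPM in 35S:nahG CT against 6.60 to 9.66 in WT CT (-0.60 ± 0.15, adjusted p = 0.012). The groups did not overlap at either temperature. In CT the value fell under the fold threshold without WT CT replicate 3 or 4 or 35S:nahG CT replicate 2 or 3 (-0.50 to -0.58). Solyc02g067520.3 differed in the same direction, with 25.8 to 30.0 CPM in 35S:nahG LTMH against 40.9 to 47.3 in WT LTMH (-0.70 ± 0.08), and 19.9 to 22.9 in 35S:nahG CT against 27.4 to 33 in WT CT (-0.53 ± 0.08, adjusted p = 0.00083, under the fold threshold).

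snoR44_J54 (ENSRNA050029714) had 6.24, 7.02 and 7.36 CPM in 35S:nahG LTMH against 10.5, 12.1 and 12.2 CPM in WT LTMH (log2 fold change -0.82 ± 0.11 SE), with no overlap. It rose with LTMH in 35S:asCCD7, at 9.37, 9.47, 11.2 and 12.3 CPM against 5.19 to 6.06 CPM in CT (0.82 ± 0.12, adjusted p = 0.006). In WT the value was 0.55 ± 0.11 (0.0061), under the fold threshold, in 35S:nahG 0.08 ± 0.12 (0.61) and in Never ripe 0.33 ± 0.20 (0.28). It lies 192 nt from Solyc03g115880.1, a protein-coding gene on the plus strand.

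Of the genes with identifiers only, ENSRNA050029720 (92 nt), which also entered through WT, was lower in the 3 lines in CT, at 0.403 to 0.637 CPM in 35S:nahG, 0.260 to 0.598 in Never ripe and 0.354 to 0.574 in 35S:asCCD7, against 1.24, 1.36, 1.38 and 1.55 CPM in WT CT. The log2 fold changes were -1.44 ± 0.23 (SE), -1.70 ± 0.27 and -1.65 ± 0.23. It fell with LTMH in WT, to 0.595, 0.778 and 0.812 CPM (-0.99 ± 0.22). Its mean over the 29 libraries was 0.596 CPM, and it passed the limit through its high WT CT values. This fall is thus also in part fixed by the choice, and no p is given. Against WT in LTMH it was -1.20 ± 0.33 in 35S:nahG, -1.64 ± 0.33 in Never ripe and -0.38 ± 0.30 in 35S:asCCD7. The first 2 were called. The first of these was lost without WT LTMH replicate 2 or 3 or 35S:nahG LTMH replicate 2 or 3 (-1.02 to -1.19), the second without WT LTMH replicate 2, 3 or 4 or Never ripe LTMH replicate 1 or 3 (-1.57 to -1.81).

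ENSRNA050029629 (130 nt), ENSRNA050030157 (150 nt), ENSRNA050030328 (82 nt) and ENSRNA050030473 (87 nt) were also lower in the 3 lines in CT. There their log2 fold changes were -0.61 to -1.39 in 35S:nahG, -0.94 to -1.51 in Never ripe and -0.70 to -1.29 in 35S:asCCD7. ENSRNA050030473 had 1.36 to 1.89 CPM in 35S:nahG CT, 1.30 to 1.87 in Never ripe CT and 1.18 to 2.32 in 35S:asCCD7 CT, against 3.25 to 4.51 CPM in WT CT, and in each line the libraries were apart from those of WT. Its call in 35S:asCCD7 CT (-1.11 ± 0.21 SE, adjusted p = 0.017) was lost without WT CT replicate 3 or 4 or 35S:asCCD7 CT replicate 2 (-1.02 to -1.08). ENSRNA050029629 had 0.869 to 1.39, 0.679 to 1.19 and 1.45 to 2.41 CPM in the 3 lines, against 2.55 to 3.10 CPM in WT CT, and its 35S:asCCD7 call (-0.80 ± 0.18, 0.034) was lost without any WT CT replicate or 35S:asCCD7 CT replicate 1, 2 or 3 (-0.73 to -0.85). ENSRNA050030328 lost its 35S:nahG CT call (-0.61 ± 0.19, 0.036) without WT CT replicate 1, 2 or 3 or 35S:nahG CT replicate 2, 3 or 4 (-0.48 to -0.66) and its 35S:asCCD7 CT call (-0.70 ± 0.15, 0.025) without WT CT replicate 1, 2 or 3 or 35S:asCCD7 CT replicate 2 or 3 (-0.63 to -0.69).

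ENSRNA050029972 (102 nt) and ENSRNA050029780 (140 nt) are further genes that entered through WT, with 0.371 and 0.499 CPM over the libraries of the lines. ENSRNA050029972 was lower than WT CT in 35S:nahG CT and Never ripe CT, at 0.319 to 0.384 CPM (-1.67 ± 0.36, log2, SE) and 0.182 to 0.299 CPM (-2.03 ± 0.38), against 0.577 to 1.81 CPM. ENSRNA050029780 was lower than WT LTMH in 35S:nahG LTMH (0.522 to 0.705 CPM) and 35S:asCCD7 LTMH (0.194 to 0.617 CPM), against 0.952 to 1.57 CPM, by -1.01 ± 0.28 and -1.93 ± 0.44, and lower than WT CT in 35S:nahG CT (-1.36 ± 0.39). The calls of ENSRNA050029780 were lost without WT LTMH replicate 2 or 3 or any 35S:nahG LTMH replicate (-0.80 to -1.08), without any WT LTMH replicate or 35S:asCCD7 LTMH replicate 2 or 4 (-1.73 to -2.08), and in CT without WT CT replicate 3 or 4 or 35S:nahG CT replicate 2 or 4 (-1.17 to -1.27).

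A few genes were higher in the lines. ENSRNA050030327 (104 nt) was 16.6, 15.9, 20.4 and 24.4 CPM in Never ripe CT, against 1.82, 1.92, 2.33 and 2.41 CPM in WT CT (log2 fold change 3.28 ± 0.17 SE, adjusted p = 1.7e-06). In LTMH it was 9.28, 11.8 and 13.6 CPM in Never ripe, against 3.54, 5.25 and 8.47 in WT (0.96 ± 0.31, 0.11). Never ripe LTMH was lower than Never ripe CT (-0.92 ± 0.18, 0.015), with no overlap. In the other lines it rose with LTMH, to 9.43, 9.61 and 17.1 CPM in 35S:nahG LTMH against 2.67 to 3.60 in 35S:nahG CT (1.80 ± 0.23, 0.00017), 5.72 to 10.2 in 35S:asCCD7 LTMH against 1.61 to 2.44 in 35S:asCCD7 CT (1.73 ± 0.22, 0.0034) and in WT (1.37 ± 0.29, 0.0071). The response differed between Never ripe and WT (interaction -2.31 ± 0.36, adjusted p = 0.0013).

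ENSRNA050030112 (93 nt), which entered through the lines (0.296 CPM over the 7 WT libraries), was higher in the 3 lines than in WT in LTMH, with 1.29, 1.57 and 2.17 CPM in 35S:nahG, 1.24, 2.17 and 3.00 in Never ripe and 1.55, 2.72, 3.10 and 5.20 in 35S:asCCD7, against 0.327, 0.329 and 0.435 CPM in WT. Against WT these were log2 fold changes of 2.13 ± 0.28 (SE), 2.52 ± 0.40 and 3.02 ± 0.45. The Never ripe call was lost without WT LTMH replicate 2, 3 or 4 (2.44 to 2.65) and the 35S:asCCD7 call without WT LTMH replicate 2 (2.97). In CT it was 0.607 to 1.20 CPM in Never ripe against 0.0290 to 0.394 in WT (1.86 ± 0.49, a call lost without Never ripe CT replicate 3 at 1.66), 0.502 to 1.75 in 35S:asCCD7 (2.08 ± 0.61, not called) and 0.155 to 0.295 in 35S:nahG (-0.15 ± 0.57, not called). It rose with LTMH in 35S:nahG (2.80 ± 0.31, adjusted p = 7.2e-05).

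ENSRNA050030113 (94 nt), whose identifier follows that of ENSRNA050030112 and which entered through WT (0.429 CPM over the libraries of the lines), went the other way against WT in LTMH. It had 0.406, 0.471 and 0.479 CPM in 35S:nahG and 0.208, 0.371 and 0.372 in Never ripe, against 1.08, 1.10 and 1.70 CPM in WT (log2 fold changes -1.57 ± 0.29 SE and -2.05 ± 0.34), and 0.477, 0.731, 0.896 and 1.22 in 35S:asCCD7 (-0.70 ± 0.37, not called). The Never ripe call was lost without any 1 of WT LTMH replicates 2, 3 and 4 or Never ripe LTMH replicates 1 and 3 (-1.81 to -2.20). In WT it rose with LTMH, with 0.348 to 0.577 CPM in CT (1.42 ± 0.29). Its mean over the 29 libraries was 0.522 CPM, and it passed the limit through its high WT LTMH values. This rise is thus also in part fixed by the choice, and no p is given.

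**Figure D5:**
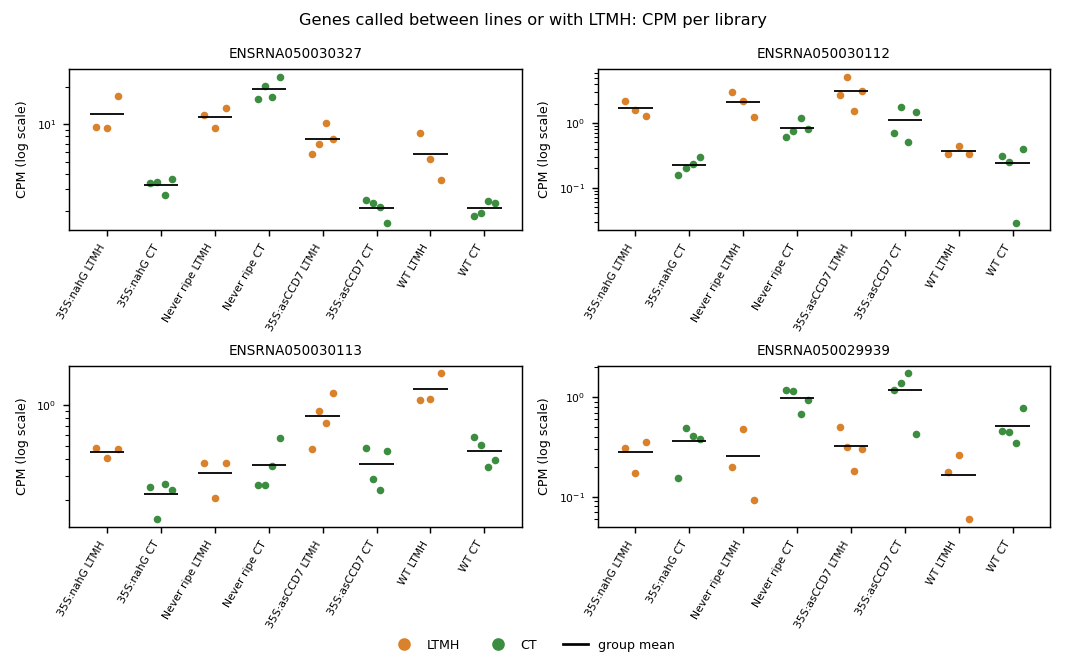
CPM per library (log scale) of 4 genes called between lines or with LTMH, orange for LTMH and green for CT, with group means as black lines. ENSRNA050030327 is at 15.9 to 24.4 CPM in Never ripe CT and at 1.61 to 3.60 CPM in the other CT groups, ENSRNA050030112 is higher in the LTMH libraries of the 3 lines than in those of WT, ENSRNA050030113 is higher in WT LTMH than in WT CT, and ENSRNA050029939 is lower in LTMH than in CT in Never ripe and WT.

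A difference in response to LTMH between a line and WT was tested as an interaction. In 35S:nahG 8 of the 94 genes were called (7 above and 1 below the WT response), or 8.51%, against 10.1% of all tested genes, and 6 of the 8 held with every library left out in turn. They were the 6 genes ENSRNA050029543, ENSRNA050029559, ENSRNA050029573, ENSRNA050029576, ENSRNA050029585 and ENSRNA050030505 of the 7 above, ENSRNA050030112 and ENSRNA050029917. Of these, ENSRNA050029585 and ENSRNA050030112 entered through the lines. In ENSRNA050029917 (104 nt), LTMH changed 35S:nahG by -0.05 ± 0.11 (log2, SE, adjusted p = 0.75), with 6.53, 6.82 and 7.03 CPM in LTMH against 5.91 to 7.14 in CT, and WT by 0.87 ± 0.16 (0.0043), with 7.24, 8.53 and 9.61 CPM in LTMH against 3.74 to 5.34 in CT (interaction -0.92 ± 0.20, 0.0074). In Never ripe 3 genes were called, or 3.19%, against 5.81%, namely ENSRNA050030327, ENSRNA050030113 and ENSRNA050029737, and 1 was left without WT LTMH replicate 3 or 4. In 35S:asCCD7 edgeR called 0 of the 94 genes, against 0.319% of all genes, with 10 at an unadjusted p under 0.05 and 1 called by DESeq2, and 2 were called without 35S:asCCD7 LTMH replicate 3.

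Runs of near-consecutive identifiers with like lengths were looked at as possible families, and there were 5. ENSRNA050030014 to ENSRNA050030018 with ENSRNA050030023 (6 genes, 106 to 108 nt) had means of 4.66 to 16.6 CPM and summed to 33.6 to 67.7 CPM per library, and each of them was above 0 on the log2 fold change scale with LTMH in every line, from 0.38 to 0.67 in 35S:nahG, 0.26 to 0.63 in Never ripe, 0.09 to 0.48 in 35S:asCCD7 and 0.15 to 0.55 in WT. Of these ENSRNA050030018 and ENSRNA050030023 passed the thresholds in 35S:nahG and ENSRNA050030018 in Never ripe. ENSRNA050030459, ENSRNA050030461 and ENSRNA050030463 (124 nt each) summed to 0.571 to 3.57 CPM. Their log2 fold changes with LTMH were 0.29 to 0.98 in 35S:nahG and 0.45 to 0.84 in Never ripe. In 35S:asCCD7 they were 0.70 to 1.41 and in WT 0.12 to 1.17. Of these, ENSRNA050030461 in WT passed (1.17 ± 0.25 SE). That gene entered through WT (0.421 CPM over the libraries of the lines), by its high WT LTMH values. Its rise in WT is in part fixed by the choice, so no p is given. The other 3 runs held values on both sides of 0 in some lines. From ENSRNA050029527 to ENSRNA050029540 (5 genes, 95 to 98 nt) they were -0.33 to 0.25 in 35S:nahG, -0.07 to 0.54 in Never ripe, -0.22 to 0.42 in 35S:asCCD7 and 0 to 0.51 in WT. From ENSRNA050030242 to ENSRNA050030247 (3 genes, 93 to 96 nt) they were -0.12 to 0.23 in 35S:nahG, 0.19 to 0.67 in Never ripe, 0.19 to 0.54 in 35S:asCCD7 and 0.15 to 0.23 in WT. From ENSRNA050030316 to ENSRNA050030321 (4 genes, 91 to 92 nt) they were 0 to 0.06 in 35S:nahG, 0.29 to 0.74 in Never ripe, -0.08 to 0.18 in 35S:asCCD7 and -0.11 to 0.22 in WT. Members of such runs share length and perhaps sequence, so they are not replicates of each other.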

How the data were processed

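RNA of the 29 anther libraries was sequenced by the authors, who aligned reads to the tomato genome (SL3.0, ITAG3.2) with HISAT2 2.0.5 and counted them per gene with featureCounts 1.5.0-p3 at default settings, so that reads were counted without strand and reads with several positions were left out. The count values were used as deposited, as whole reads. The FPKM values, made by the authors from these counts, served only to compare levels per length and to recover gene lengths, which matched the annotated length to within rounding to a whole nucleotide in 1040 of 1040 genes. No column was left unassigned.

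The genes and lists were chosen with earlier results of these data known. Counts were tested in R 4.3.3 with edgeR 4.0.16 (filterByExpr with a minimum count of 10 over all libraries, TMM, glmQLFit and glmQLFTest, two-sided), on the libraries of the groups compared, with adjustment over 21637 genes. Names and positions of 4 genes came from the study's gene annotation, held here only for genes ranked first between 35S:nahG LTMH and WT LTMH. The 94 genes are those with a mean of at least 0.5 CPM on total counts. Named genes were the 10 with the highest mean CPM, the 2 highest annotated snoRNA genes, the 2 highest and 2 lowest called log2 fold changes with non-overlapping libraries in each pairwise comparison, genes called in all 4 lines and up to 3 per interaction. ENSRNA050029573, ENSRNA050030505, ENSRNA050029778, ENSRNA050029629, ENSRNA050030157, ENSRNA050030328, ENSRNA050030473 and the runs of like identifiers were added after their values were seen. The p-values measure the spread between these samples. Alternatives were DESeq2 1.42.0, RLE, no filter, all 8 groups in one fit, a replicate block, no fold threshold, leaving out each library and, added after the values were seen, only genes at the limit both in the lines and in WT. The tests were tried on simulated data.

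Replicate numbers met a rule for pairing (correlation of deviations from the group means over 0.1 in each of at least 3 pairs) only in 35S:asCCD7 CT against WT CT, with r of 0.102 to 0.387 in 4 pairs. There only 1 of the 4 35S:asCCD7 CT libraries correlated best with its own number, so a pairing is not shown. The numbers come from the labels, and the block changed 8 calls to 9. Intervals cover counting error only. MC, a marker of sepals, was not analysed here.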

Additional observations from a re-analysis of the deposited data

Results flagged for a closer look

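Among the named genes and the summed level of the 94 genes, 158 groups of 4 libraries were examined for a library far from the other 3, and 3 were found, where chance gives about 1 in 20. ENSRNA050029910 was at 44.4 CPM in 35S:nahG CT replicate 1, against 34.2 to 34.7 CPM in the other 3 libraries. ENSRNA050029559 was at 0.637 CPM in 35S:nahG CT replicate 2, against 0.124 to 0.147 CPM. ENSRNA050029972 was at 0.533 CPM in 35S:asCCD7 LTMH replicate 1, against 0.388 to 0.405 CPM.

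The response to LTMH differed between 35S:nahG and WT by the interaction test of edgeR in 8 genes. The log2 differences were 4.64 ± 0.55 (SE, adjusted p = 0.00021) for ENSRNA050029559, 3.92 ± 0.51 (0.00038) for ENSRNA050029576, -0.92 ± 0.20 (0.0074) for ENSRNA050029917, 1.92 ± 0.51 (0.02) for ENSRNA050030505, 5.78 ± 1.00 (0.0037) for ENSRNA050029543 and 5.16 ± 1.29 (0.015) for ENSRNA050029573. ENSRNA050030112 (2.29 ± 0.66) and ENSRNA050029585 (8.19 ± 1.16) entered through the lines, so their values are a description and no p is given. ENSRNA050029543, ENSRNA050029573 and ENSRNA050029585 had 0 or 1 read in 35S:nahG CT, so that these fitted values depend on the prior count and give no size. The response differed between Never ripe and WT in 3 genes, by 0.72 ± 0.17 (0.019) for ENSRNA050029737, -2.31 ± 0.36 (0.0013) for ENSRNA050030327 and -1.80 ± 0.50 for ENSRNA050030113. The last entered through WT, so its value is a description and no p is given.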

How the results depend on the processing

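Each count of called genes was recomputed under the alternatives. With the replicate number as a block, LTMH against CT gave 10 of 94 genes in WT (18 without the block), 1 in Never ripe (7) and 5 in 35S:asCCD7 (8), and against WT in LTMH it gave 14 in 35S:nahG (24), 0 in Never ripe (7, with 31 at an unadjusted p under 0.05) and 3 in 35S:asCCD7 (5). In Never ripe LTMH snoZ105 then stood at -3.12 (adjusted p = 0.077). The block moved no other count by over 1.5 times, and in none of the 10 pairwise comparisons did every library correlate best with its own number (same-number r of -0.355 to 0.475). DESeq2 gave 16 genes in 35S:asCCD7 CT, 13 in Never ripe LTMH and 9 in 35S:asCCD7 LTMH against WT, and 1 in the 35S:asCCD7 interaction. One fit over all 8 groups gave 13 for LTMH in 35S:asCCD7, 14, 13 and 12 in 35S:asCCD7 CT, Never ripe LTMH and 35S:asCCD7 LTMH against WT, and 2 in the 35S:asCCD7 interaction. Chosen after seeing the data, a limit of 0.5 CPM met both over the libraries of the lines and over those of WT gave 2 genes in Never ripe LTMH and 1 in 35S:asCCD7 LTMH against WT. A mean of at least 1 CPM left 61 of the 94 genes. RLE, no filter and no fold threshold kept every count within 1.5 times.

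With each library left out in turn, LTMH against CT gave 16 to 20 genes in 35S:nahG, 2 to 11 in Never ripe, 4 to 8 in 35S:asCCD7 and 11 to 20 in WT. Against WT the ranges were 12 to 24 in 35S:nahG, 1 to 9 in Never ripe and 1 to 8 in 35S:asCCD7 in LTMH, and 22 to 26, 18 to 23 and 3 to 12 in CT. The interactions gave 7 to 10, 1 to 3 and 0 to 2. The 40 fold changes of named genes were chosen because they were called, so a change of direction was unlikely from the start. Of their 529 values under these alternatives, 440 kept direction and call, 89 kept direction without the call and 0 changed direction. The cause was not tested. At the median depth 3 reads correspond to 0.0870 CPM.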
